A study of Rattus norvegicus with 22 samples.

Results

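The genes described here encode the proteins of the cytosolic ribosome, measured in the lungs of rats after experimental pulmonary embolism (PE). They were chosen by name alone, as every gene whose symbol in the array annotation starts with Rpl, Rps or Rplp followed by a number, without the Rps6k kinases. Of 14217 genes with a probe set that carries 1 symbol, 49 met this rule. Each was represented by its probe set of highest mean signal among 54 probe sets. They comprised 28 proteins of the large subunit, 12 of the small subunit, the stalk protein Rplp0, 6 paralogs and 2 symbols annotated as pseudogenes. A further 36 probe sets list a ribosomal protein symbol among several symbols, so they cannot be given to 1 gene and are described only as a group.

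Male Sprague-Dawley rats of about 350 g were injected in the jugular vein with 25 micron polystyrene microspheres, which lodge in the pulmonary arteries as inert beads and not as blood clots. Mild PE was produced with 1300000 and Severe PE with 2000000 microspheres per 100 g in 0.01% Tween 20, in volumes of 0.1 and 0.15 ml per 100 g, and Vehicle rats received 0.15 ml of 0.01% Tween 20 alone. Lungs were lavaged with 8 ml of saline before excision at 2 h or 18 h, and 1 array was hybridised per rat, so that each time had 3 Vehicle rats, 4 with Mild PE and 4 with Severe PE (22 arrays). Values are log2 signals after quantile normalisation with a floor of 16, so that 4 is the lowest value, and differences are log2 differences with their standard error (SE). The lung markers Sftpc, Sftpa1 and Scgb1a1 had mean log2 signals of 14.60, 14.79 and 14.74. On 4 arrays the Gapdh control gave weak 5′ signal relative to its 3′ signal. They belonged to rat 3 of 2-h Vehicle, rat 1 of both 2-h Severe PE and 18-h Vehicle, and rat 4 of 18-h Mild PE.

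Ribosomal proteins assemble with ribosomal RNA into the large and the small subunit, and the stalk protein Rplp0 helps to recruit translation factors. Their mRNAs are abundant in nearly every cell and typically begin with a 5′ terminal oligopyrimidine (TOP) tract, a run of C and T bases at the transcription start. Through this tract their translation is controlled by the mTOR pathway, so that output of ribosomal protein can change while the amount of mRNA does not. An array measures only the amount of mRNA.

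Promoter windows of 300 bases (250 before and 50 after the annotated start, RefSeq, build GRCr8) were found for 42 of the 49 genes. A run of at least 6 C or T bases that touched the 21 bases centred on the start was present in 31 of 42 (73.8%), against 29.1% of all 33469 windows of the table and 28.5% of the 21842 windows of protein-coding genes. The run was present in 29 of 36 core genes (80.6%) and 2 of 6 paralogs (33.3%). The median length of the runs was 12 bases and the longest had 24. A start base of C followed by at least 4 pyrimidines was present in 12 of 42 (28.6%), against 2.63% of all windows. GCCATNTT on either strand was found in 14.3% of the ribosomal protein windows and 6.96% of all windows. CCGGAAG was found in 23.8% and 8.75%, and GGGCGG in 59.5% and 33.1%. In windows of protein-coding genes the shares were 7.67% for GCCATNTT, 10.7% for CCGGAAG and 41.8% for GGGCGG. These searches describe the letters of a window and not binding by a factor.

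Shown next are 60 bases from 40 before the start, with the pyrimidine run in capitals, for the genes on which the later results turn. Rpl4 (chr8:73566437-73566496, + strand), Rpl14 (chr8:129163580-129163639, + strand), Rpl21 (chr12:13386134-13386193, − strand), Rps23 (chr2:23814477-23814536, + strand) and Rplp0 (chr12:46718371-46718430, − strand) each hold a run. Of the paralogs shown, Rps4y2 (chr4:183000873-183000932, + strand) holds one, and Rps27l (chr8:76443618-76443677, + strand) and Rpl7l1 (chr9:21695678-21695737, + strand) do not.
Rpl4: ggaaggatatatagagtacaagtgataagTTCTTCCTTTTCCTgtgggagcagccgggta
Rpl14: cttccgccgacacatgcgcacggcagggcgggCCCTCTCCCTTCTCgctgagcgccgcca
Rpl21: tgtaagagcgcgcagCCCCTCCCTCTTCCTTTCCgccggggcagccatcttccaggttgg
Rps23: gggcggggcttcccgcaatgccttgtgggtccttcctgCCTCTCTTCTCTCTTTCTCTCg
Rplp0: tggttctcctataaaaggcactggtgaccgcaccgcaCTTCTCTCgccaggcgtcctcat
Rps27l: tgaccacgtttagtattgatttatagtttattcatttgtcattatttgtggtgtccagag
Rpl7l1: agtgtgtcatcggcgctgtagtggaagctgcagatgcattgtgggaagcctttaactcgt
Rps4y2: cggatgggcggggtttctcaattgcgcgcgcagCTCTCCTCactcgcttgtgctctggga

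The probe sets fell into a bright majority and a dim remainder. In 37 of 49 the mean log2 signal was at least 12, from 12.48 for Rpl21 to 14.82 for Rps29, whereas 3.17% of all 31042 probe sets reached 12. The 3 paralogs Rpl7l1 (11.10), Rps27l (9.33) and Rps4y2 (9.30) lay between, and 9 genes lay under 8. Signals of different probe sets depend on their probes and were not read as relative amounts of RNA. Among the 100 brightest probe sets, 20 were of these genes and 19 listed a ribosomal protein among several symbols. Of the 36 shared probe sets, 33 were bright, with a median of 14.15.

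**Figure D1:**
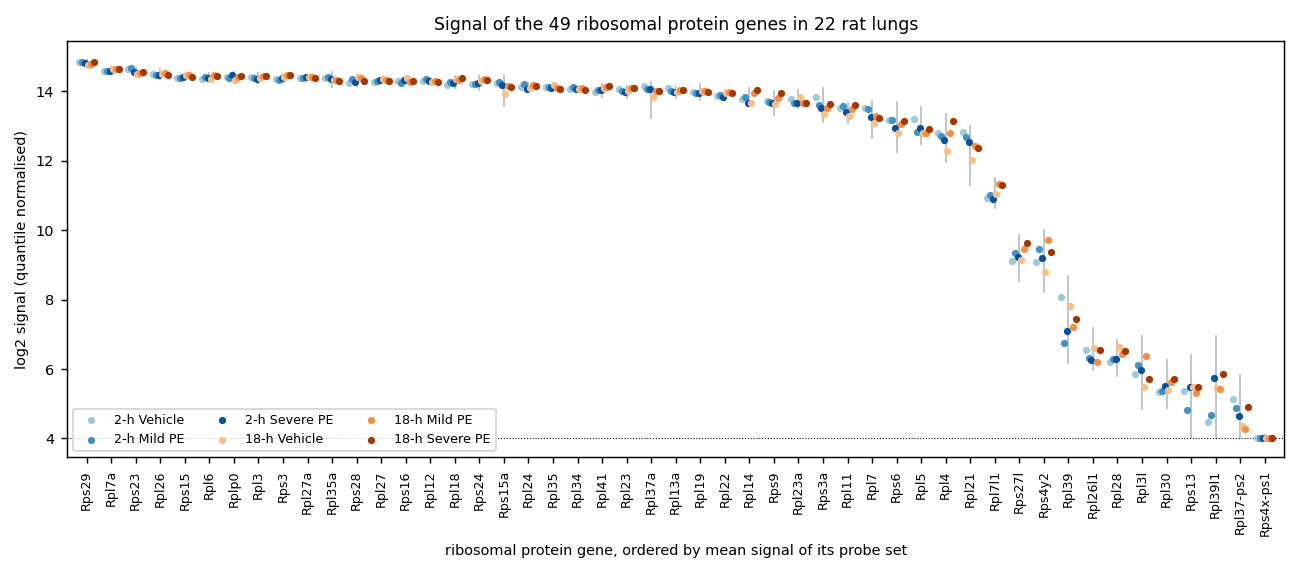
Log2 signal after quantile normalisation of the probe set of each of the 49 ribosomal protein genes, with 1 point per group mean and a grey line from the lowest to the highest of 22 rats (dotted line, the floor of 4). Group means of most bright genes lie close together (median range 0.14), with Rpl4 (0.84) and Rpl21 (0.81) the widest of them, and those of the 9 genes with a mean under 8 have a median range of 0.67, from 0.02 for Rps4x-ps1 to 1.38 for Rpl39l1.

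The 5 brightest were Rps29, a small subunit protein, Rpl7a, Rps23, Rpl26 and Rps15 (14.82, 14.61, 14.57, 14.49 and 14.42). The 5 dimmest were Rpl30, Rps13, Rpl39l1, Rpl37-ps2 and Rps4x-ps1 (5.50, 5.31, 5.30, 4.69 and 4.004), and Rps4x-ps1 was at or under the floor in 21 of 22 rats. Rpl28, Rpl30 and Rps13 are also listed by shared probe sets, so for them, as for the others, the values given are of the single-symbol probe set alone. Of the genes under 8, Rpl39 (7.35) was a large subunit protein with no other probe set.

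Within the bright genes the rats of a group were nearly alike. The pooled SD within groups had a median of 0.07 and was under 0.1 for 23 of 37, and the range of the 6 group means had a median of 0.14. Quantile normalisation nearly fixes the value of the brightest probe sets, so this spread is partly set by the scaling. Rps29 gave 14.81, 14.91 and 14.81 in 2-h Vehicle rats and 14.84, 14.84, 14.81 and 14.87 in 18-h Severe PE rats, which overlap. As deposited its log2 signals were 14.48, 14.72 and 14.59 in the former and 15.08, 14.98, 14.85 and 14.90 in the latter, which do not. These groups differ in both time and dose. The 18-h Vehicle rats gave 14.97, 15.16 and 14.91 as deposited, which overlap the 18-h Severe PE rats. Rplp0 gave 14.32, 14.45 and 14.44 in 2-h Vehicle rats, 14.38, 14.25 and 14.36 in 18-h Vehicle rats, and 14.42, 14.41, 14.49 and 14.45 in 18-h Severe PE rats. For Rplp0 the difference of Severe PE from Vehicle was 0.11 (SE 0.05) at 18 h and 0.06 (SE 0.06) at 2 h, neither past the test (adjusted p = 0.247 and 0.872). As deposited Rplp0 gave 14.02, 14.28 and 14.15 in 2-h Vehicle rats and 14.71, 14.62, 14.60 and 14.62 in 18-h Severe PE rats, without overlap. Its 18-h Vehicle rats lay between them as deposited, at 14.48, 14.49 and 14.34. The smallest ranges of group means were those of Rps4x-ps1, Rpl27a, Rpl26, Rpl19 and Rps29 (0.02, 0.04, 0.05, 0.06 and 0.08), the first because it lay at the floor.

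The less bright core genes varied more among rats of a group. Rps6, the small subunit protein that S6 kinases phosphorylate, had a pooled SD of 0.33, and its 2-h Severe PE rats gave 13.68, 13.01, 12.66 and 12.41. In 18-h Vehicle rats Rps6 gave 12.25, 13.18 and 12.94, the lowest of them on the array of rat 1 with weak 5′ signal of the Gapdh control. Other arrays of weak 5′ signal lay differently. Rat 1 of 2-h Severe PE (13.68) and rat 3 of 2-h Vehicle (13.48) were the highest of their groups. Rat 4 of 18-h Mild PE (13.13) lay within the range of its group. Rpl4, Rpl5, Rpl7, Rpl21 and Rps3a had pooled SDs of 0.24, 0.24, 0.23, 0.29 and 0.22. The largest ranges of group means were those of the dim genes Rpl39l1 (1.38), Rpl39 (1.34), Rpl3l (0.89) and Rpl37-ps2 (0.85) and of Rps4y2 (0.94).

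The first question was whether either dose of microspheres altered these genes by 2 h. A gene was called when its Benjamini-Hochberg adjusted p over all 31042 probe sets was under 0.05 (limma, fitted on the 2 groups compared) and its means differed at least 1.5-fold. None of the 49 genes was called for Mild PE against Vehicle (0.332% of all probe sets), Severe PE against Vehicle (0.0226%) or Severe PE against Mild PE (0.438%), and the smallest adjusted p was 0.155. At an unadjusted p under 0.05 there were 3, 0 and 5 of the 49 genes in the 3 comparisons, against 13.2%, 7.67% and 12.3% of all probe sets. The groups did not overlap for 4, 1 and 4 genes, against 12.4%, 6.65% and 7.5% of all probe sets. The methods' t-test called none in any of these comparisons. Median differences over the 49 genes were 0.00, −0.02 and −0.04, beside 0.00 over all probe sets in each.

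Among the 37 bright genes the 95% confidence interval of the difference lay within 1.5-fold either way for 36, 31 and 34 genes in these comparisons. Their differences ran from −0.36 to 0.13 for Mild PE and from −0.32 to 0.07 for Severe PE. The largest differences were of genes measured with little precision. For Mild PE they were Rps4y2, Rpl3l and Rps27l above Vehicle (0.37, 0.24 and 0.22) and Rpl39, Rps13 and Rpl5 below it (−1.34, −0.54 and −0.36), with adjusted p between 0.278 and 0.805. For Severe PE they were Rpl39l1, Rpl30 and Rps27l (1.26, 0.17 and 0.13) and Rpl39, Rpl37-ps2 and Rps3a (−1.001, −0.49 and −0.32), with adjusted p between 0.691 and 0.909. Between the doses Rpl39l1, Rps13 and Rpl39 lay highest in Severe PE (1.07, 0.66 and 0.34) and Rps4y2, Rpl37-ps2 and Rpl7 lowest (−0.27, −0.24 and −0.23).

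Rpl39, one of the smallest ribosomal proteins, shows how far such a value can be taken. Its 2-h Vehicle rats gave 8.67, 7.66 and 7.92 and its 2-h Mild PE rats 6.34, 6.16, 6.94 and 7.53, so the groups did not overlap, but the adjusted p was 0.278. Its 18-h Vehicle rats gave 7.96, 8.15 and 7.34 and its 18-h Mild PE rats 6.45, 6.96, 8.24 and 7.24, which overlap.

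**Figure D2:**
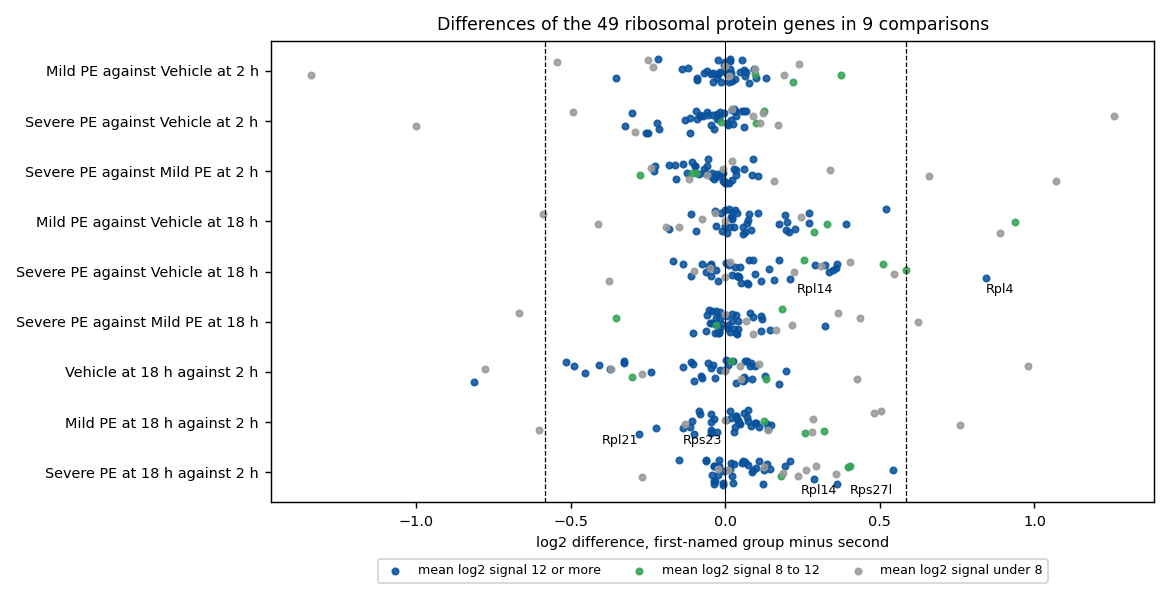
Log2 difference of each of the 49 genes (points, coloured by mean signal) in 9 pairwise comparisons, first-named group minus second, with dashed lines at a 1.5-fold difference. Named points passed an adjusted p of 0.05, and of these only Rpl4 in Severe PE against Vehicle at 18 h lies beyond the dashed lines.

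At 18 h Severe PE was set against Vehicle, the comparison with the most calls between treatments over the whole array (7.13% of probe sets, 3.21% higher and 3.91% lower). Of the 49 genes 1 was called, Rpl4, and 48 were not, with a median difference of 0.05 beside 0.00 over all probe sets. Rpl4 encodes a large subunit protein that lines the exit tunnel of the nascent chain. Its signals were 11.97, 12.42 and 12.48 in Vehicle rats and 12.87, 13.35, 13.22 and 13.09 in Severe PE rats, without overlap. The difference was 0.84 (SE 0.17), or 1.79-fold (adjusted p = 0.0385, limma).

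That call was a narrow one. It was lost when any of the 7 rats except Severe PE rat 1 was left out, with differences from 0.68 to 0.94 and adjusted p from 0.0485 to 0.0984 over the 7 fits (limma). Without 18-h Vehicle rat 1, the array of weak 5′ signal, the difference was 0.68 (adjusted p = 0.0716). In Mild PE rats Rpl4 gave 12.96, 12.94, 12.54 and 12.81, also above every Vehicle rat, with a difference of 0.52 (SE 0.17) that did not pass (adjusted p = 0.178). The groups of 2-h rats gave 12.82, 12.58 and 13.03 for Vehicle, 12.72, 12.74, 12.81 and 12.59 for Mild PE, and 13.11, 12.55, 12.45 and 12.25 for Severe PE, all overlapping. The 18-h Vehicle rats thus lay below every rat of the other groups except 2-h Severe PE rats 3 and 4.

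Rpl14, another large subunit protein, passed the adjusted p without reaching 1.5-fold, so that 2 of the 49 genes passed the adjusted p alone (9.32% of all probe sets). It gave 13.56, 13.78 and 13.69 in 18-h Vehicle rats and 13.95, 14.07, 14.09 and 13.996 in 18-h Severe PE rats, again without overlap. The difference was 0.35 (SE 0.07, adjusted p = 0.0381, limma), and with median centring it was 0.41 and did not pass (adjusted p = 0.102). All 4 Mild PE rats (13.95, 13.96, 13.83 and 14.04) also lay above the Vehicle rats, with a difference of 0.27 (adjusted p = 0.141). A dim second probe set of Rpl14 (mean 5.60) differed by 0.87 in the same comparison, and the mean of both probe sets did not pass (adjusted p = 0.078). Left out 1 rat at a time, the difference of Rpl14 ranged from 0.29 to 0.40 and no longer passed in any of the 7 fits (adjusted p 0.0502 to 0.0956).

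For the other bright genes at 18 h the intervals were mostly narrow. Of the 37, the 95% interval lay within 1.5-fold either way for 30 in Severe PE against Vehicle and for 31 in Mild PE against Vehicle. At an unadjusted p under 0.05 there were 8 genes in Severe PE, 7 higher and 1 lower (16.3%, against 25.3% of all probe sets), and 4 in Mild PE, all higher (8.16%, against 18.7%). The groups did not overlap for 12 genes in Severe PE (24.5%, against 23.2% of all probe sets) and for 6 in Mild PE (12.2%, against 16.6%). None was called for Mild PE against Vehicle (1.03% of all probe sets) or Severe PE against Mild PE (0%), where 4 and 2 of the 49 genes had an unadjusted p under 0.05 (18.7% and 14% of all probe sets) and, in the latter, 1 gene did not overlap (8%).

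Beside Rpl4, the largest differences of Severe PE from Vehicle were those of Rps4y2 and Rpl37-ps2 (0.58 and 0.55), and those of Rpl39, Rpl23a and Rps28 on the other side (−0.38, −0.17 and −0.14), with adjusted p between 0.137 and 0.646. For Mild PE they were Rps4y2, Rpl3l and Rpl4 (0.94, 0.89 and 0.52) and Rpl39, Rpl26l1 and Rpl28 (−0.59, −0.41 and −0.19), with adjusted p from 0.103 upwards. Between the doses Rpl37-ps2, Rpl39l1 and Rpl26l1 lay highest in Severe PE (0.62, 0.44 and 0.36) and Rpl3l, Rps4y2 and Rps28 lowest (−0.67, −0.35 and −0.10). Rps28 turned to 0.043 as deposited and 0.072 with median centring.

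**Figure D3:**
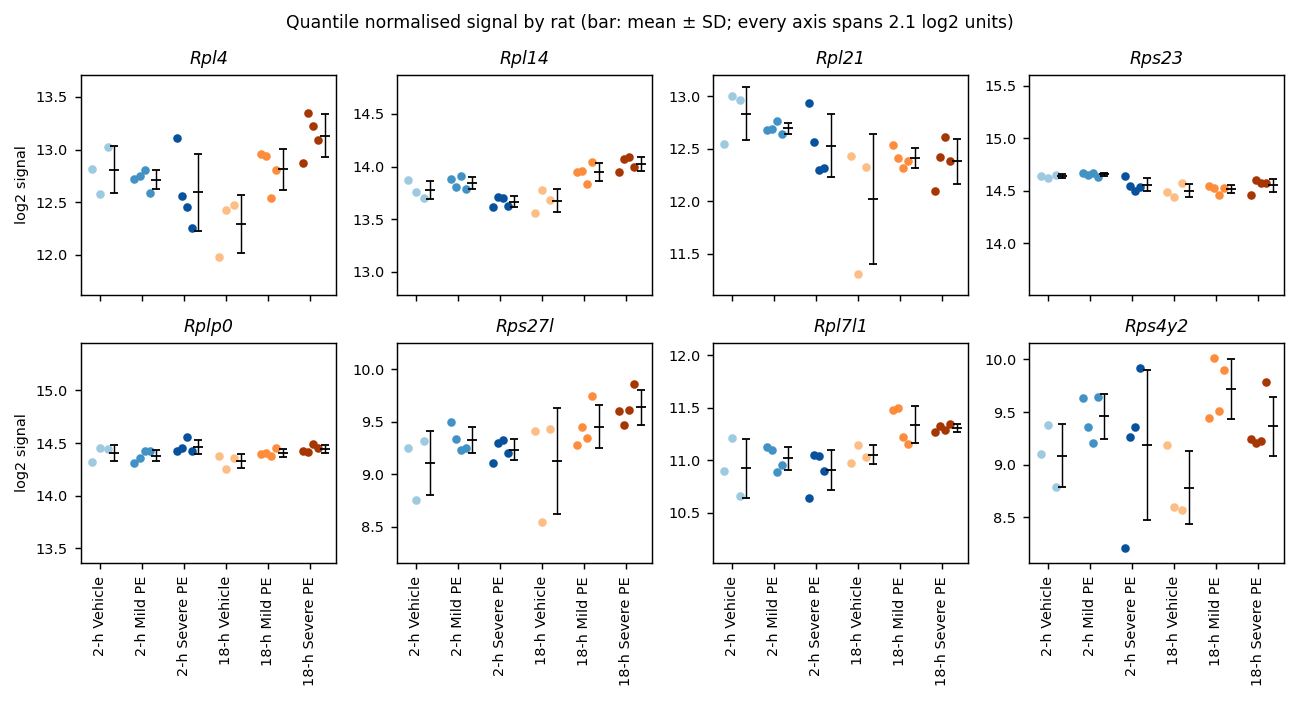
Log2 signal of 8 ribosomal protein genes by rat (points) with the mean ± SD of each group of 3 or 4 rats, every axis spanning 2.1 log2 units. The 18-h Severe PE rats lie above the 18-h Vehicle rats for Rpl4, Rpl14, Rplp0, Rps27l, Rpl7l1 and Rps4y2. For Rpl21 and Rps23 these groups overlap. After quantile normalisation Rps23 and Rplp0 vary little between groups.

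The effect of Severe PE was next compared between the times, as the difference from Vehicle at 18 h minus that at 2 h in 1 fit on all 22 arrays. Rpl4 was the only one of the 49 genes called (5.73% of all probe sets), with 1.06 (SE 0.25, adjusted p = 0.019, limma). Rpl14 passed the adjusted p with 0.46 (SE 0.09, adjusted p = 0.00659) but not 1.5-fold, so that 2 passed the adjusted p alone (6.42%). With median centring Rpl14 did not pass (0.32, adjusted p = 0.206), and Rpl4 was called under both other scalings. Leaving out each of the 22 rats, the adjusted p of Rpl14 ran from 0.00512 to 0.0212. That of Rpl4 ran from 0.00219 to 0.0566 and missed the threshold without 2-h Vehicle rat 3 (0.0566) or 18-h Vehicle rat 1 (0.0537), both arrays of weak 5′ signal. For Mild PE none was called (0.744%) or passed the adjusted p alone (0.792%).

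Between 2 h and 18 h within a treatment none of the 49 genes was called, against 0.0161% of all probe sets in Vehicle, 5.45% in Mild PE and 6.3% in Severe PE. At an unadjusted p under 0.05 there were 7, 7 and 8 genes (15.5%, 25.7% and 23.5% of all probe sets), and the groups did not overlap for 13, 7 and 7 (22.4%, 18.2% and 16.6%). The adjusted p alone was passed by 0 genes in Vehicle, 2 in Mild PE (11% of all probe sets) and 2 in Severe PE rats (8.77%). In Mild PE rats Rpl21 passed the adjusted p, from 12.68, 12.69, 12.77 and 12.64 at 2 h to 12.54, 12.41, 12.31 and 12.39 at 18 h, a difference of −0.28 (SE 0.06, adjusted p = 0.0248, limma). With median centring this difference was −0.13 and did not pass (adjusted p = 0.376). Rpl21 is a large subunit protein, and in 18-h Vehicle rats it gave 12.43, 11.31 and 12.32, so that 1 rat lay far below the others. Rps23, a small subunit protein at the decoding centre, gave 14.67, 14.65, 14.67 and 14.63 at 2 h and 14.55, 14.53, 14.46 and 14.53 at 18 h in Mild PE rats. Its difference of −0.14 (SE 0.03, adjusted p = 0.0343) turned to 0.11 in the values as deposited and to 0.20 with median centring. Leaving out 1 rat, Rpl21 no longer passed in 5 of 8 fits and Rps23 in 6 of 8.

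In Severe PE rats Rpl14 was higher at 18 h than at 2 h (13.61, 13.71, 13.70 and 13.62) by 0.36 (SE 0.05, adjusted p = 0.0105), and stayed past the threshold without any 1 rat. Rps27l, a paralog of Rps27 known as a target of p53, gave 9.11, 9.30, 9.33 and 9.20 at 2 h and 9.60, 9.47, 9.61 and 9.86 at 18 h. The difference was 0.40 (SE 0.10, adjusted p = 0.049), and it missed the threshold in all 8 fits that left out 1 rat (up to 0.112), as deposited (0.064) and with median centring (0.0636). Rpl7l1, a paralog of Rpl7, gave 10.64, 11.04, 11.04 and 10.90 at 2 h and 11.27, 11.33, 11.29 and 11.34 at 18 h, with a difference of 0.40 (SE 0.10) just short of the threshold (adjusted p = 0.0501). Its other probe set, with a mean of 11.02, differed by 0.43.

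The largest differences between the times that did not pass the test were of both dim and brighter genes. In Vehicle rats they were Rpl39l1, Rpl28 and Rps28 above 2 h (0.98, 0.43 and 0.20) and Rpl21, Rpl37-ps2 and Rpl4 below it (−0.81, −0.78 and −0.52), with adjusted p from 0.251 to 0.46. In Mild PE rats they were Rpl39l1, Rps13 and Rpl39 (0.76, 0.50 and 0.48) and, beside Rpl21, Rpl37-ps2 and Rpl7 (−0.60 and −0.23). In Severe PE rats they were Rpl4 (0.54, adjusted p = 0.156) beside Rps27l and Rpl7l1, and Rpl3l, Rpl21 and Rpl35a (−0.27, −0.15 and −0.06). Of these Rpl35a turned to 0.19 as deposited and 0.29 with median centring, and Rpl21 was at −0.0082 and turned to 0.093.

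The 2-way model of time and dose gave the most calls over the array. For time 1 of the 49 genes was called, Rpl21 (17.6% of all probe sets), which was not called without 18-h Vehicle rat 2, its lowest rat. Its adjusted p for time was 0.08 as deposited (−0.30) and 0.304 with median centring (−0.19), so the call was lost under both. In all 10 passed the adjusted p alone (22.3% of all probe sets), 8 higher and 2 lower at 18 h, against 11.8% and 10.6% of all probe sets in those directions. Rpl18, a large subunit protein, had the smallest adjusted p (0.00636) with a rise of 0.13. Its log2 signals were 14.23, 14.21 and 14.08 in 2-h Vehicle rats and 14.32, 14.36 and 14.37 in 18-h Vehicle rats, without overlap. The others that were higher were Rpl7l1 (0.28), Rpl14 (0.12), Rpl41 (0.10), Rpl22 (0.10), Rps3 (0.09), Rps28 (0.09) and Rps15 (0.07), and the 2 that were lower were Rpl21 (−0.41) and Rps23 (−0.09). Rps23 turned higher (0.20 as deposited and 0.32 with median centring), and Rpl14 turned to −0.08 when both its probe sets were averaged. For dose none was called (9.93%) and none passed the adjusted p alone (11.2%). For the interaction none was called (3.62%), and 1 passed the adjusted p (Rpl14, 0.0198, limma, against 4.17%).

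Of the 10 genes past the adjusted p for time, 7 of 10 held a pyrimidine run at the start, as did 24 of 32 of the other genes with a window. Of the 5 genes past it in a pairwise comparison, 4 held one (Rpl4, Rpl14, Rpl21 and Rps23), as did 27 of 37 of the others.

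How the arrays were scaled decided whether these genes as a group differed between the times. Quantile normalisation gives every array the same distribution of signals, and these genes occupy its upper end. In the values as deposited, which were only scaled to a common trimmed mean, 33 of the 49 genes in Vehicle, 42 in Mild PE and 45 in Severe PE rats lay above 0 at 18 h against 2 h. The median difference over the 49 genes was 0.28 in Vehicle, 0.18 in Mild PE and 0.23 in Severe PE rats, beside 0.00, 0.00 and −0.01 over all probe sets. With median centring it was 0.45, 0.26 and 0.33, beside 0.17, 0.08 and 0.09. After quantile normalisation it was 0.00, 0.03 and 0.06.

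In the 2-way model as deposited, 29 of the 49 genes passed the adjusted p for time, all 29 higher at 18 h (10.3% of all probe sets were higher), and 3 were called (18.3%). With median centring 31 passed, all higher (17.6%), and 16 were called (19.9%). The 36 shared probe sets had median differences as deposited of 0.34 in Vehicle, 0.21 in Mild PE and 0.28 in Severe PE rats. Rpl18 as deposited had signals of 15661, 17126 and 14566 in 2-h Vehicle rats, 22034, 25453 and 21053 in 18-h Vehicle rats, and 25202, 24977, 24018 and 23155 in 18-h Severe PE rats.

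The share of the summed signal of an array taken by the 49 genes showed the same split. It was 2.52%, 2.86% and 2.66% in 2-h Vehicle rats, 2.80%, 2.75%, 2.72% and 2.98% in 2-h Mild PE rats and 2.97%, 2.95%, 3.01% and 2.60% in 2-h Severe PE rats. At 18 h it was 3.01%, 3.26% and 3.01% in Vehicle, 3.02%, 3.15%, 3.16% and 3.04% in Mild PE and 3.31%, 3.39%, 3.24% and 3.27% in Severe PE rats. Every 18-h rat lay above every 2-h rat, although the closest of them differed by less than the printed digits. With the shared probe sets the mean share at 2 h was 5.14% ± 0.34 (SD, n = 3) in Vehicle, 5.41% ± 0.23 (n = 4) in Mild PE and 5.56% ± 0.32 (n = 4) in Severe PE rats. At 18 h this mean was 6.03% ± 0.30 (SD, n = 3) in Vehicle, 6.02% ± 0.16 (n = 4) in Mild PE and 6.44% ± 0.11 (n = 4) in Severe PE rats. The upper end of the arrays differed in the same order, as the 99th percentile of log2 signal as deposited had a mean of 13.06 in 2-h Vehicle, 13.24 in 18-h Vehicle and 13.33 in 18-h Severe PE rats. Its part in the difference between the times was not tested.

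Between treatments at 18 h, the values as deposited placed Severe PE above Mild PE for all 37 bright genes, by a median of 0.13, although none passed the adjusted p. After quantile normalisation that median was 0.00. Severe PE lay above Vehicle by a median of 0.13 over the 49 genes as deposited, 0.10 with median centring and 0.05 after quantile normalisation, and for Mild PE these medians were 0.00, −0.06 and 0.03.

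**Figure D4:**
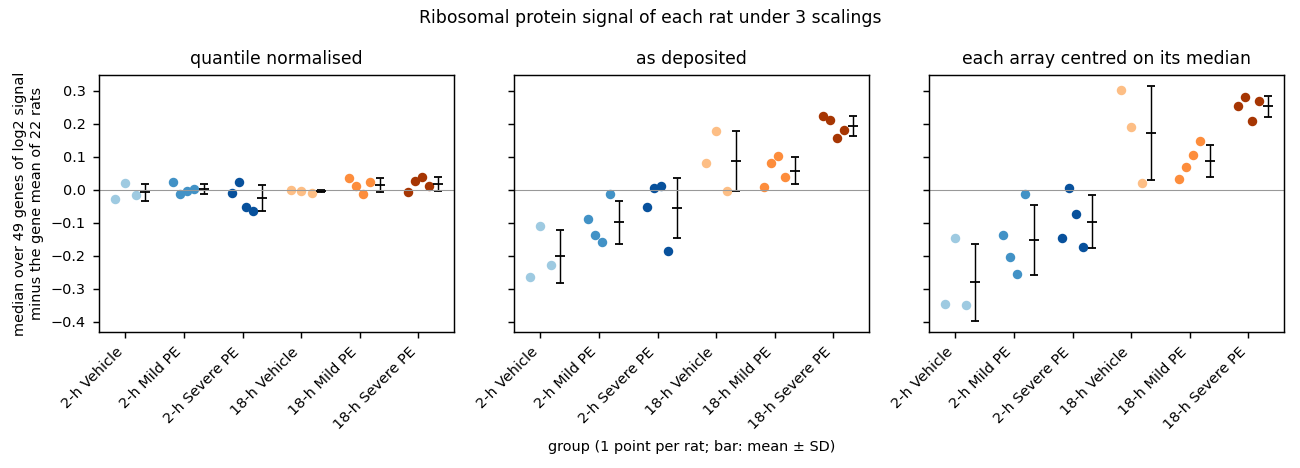
Median over the 49 genes of the log2 signal minus the mean of each gene over 22 rats, for each rat (points) with the mean ± SD of each group, under 3 scalings. After quantile normalisation all rats lie near 0, and in the other panels the means of the 18-h groups lie above those of the 2-h groups. As deposited single rats of the times overlap, as 18-h Vehicle rat 3 (−0.0030) lies under 2-h Severe PE rat 3 (0.010).

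Paralogs were set beside their core proteins. Rpl3l, a copy of Rpl3 known from skeletal muscle and heart, had a mean of 5.95. It differed from Vehicle at 18 h by 0.89 (SE 0.41) in Mild PE and 0.22 (SE 0.48) in Severe PE. The brighter probe set of Rpl3 differed by 0.07 (SE 0.07) in both. The second probe set of Rpl3 (mean 9.24) differed by −0.07 in Mild PE and 0.57 in Severe PE. Rpl26l1 differed by −0.41 (SE 0.26) and −0.05 (SE 0.33), and Rpl26 by 0.02 (SE 0.05) and −0.03 (SE 0.05). Rpl7l1 differed by 0.29 (SE 0.11) and 0.25 (SE 0.06), with adjusted p of 0.246 and 0.0513 (limma), and Rpl7 by 0.20 (SE 0.19) and 0.16 (SE 0.17). Second probe sets differed by 0.14 and 0.31 for Rpl7l1 (mean 11.02) and by 0.0018 and 0.057 for Rpl7 (mean 8.09). Rps27 and Rps4x were not among the 49 genes, so Rps27l and Rps4y2 are given alone. Rps4y2 gave 9.18, 8.60 and 8.57 in 18-h Vehicle rats and 9.45, 10.02, 9.51 and 9.90 in 18-h Mild PE rats, a difference of 0.94 (SE 0.22) without overlap that did not pass (adjusted p = 0.103).

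Genes needed to make ribosomes, and not part of them, were counted in the same comparisons. Of 80 ribosome biogenesis factors, which process ribosomal RNA and assemble the subunits in the nucleolus, 79 were measured. At 18 h in Severe PE against Vehicle 28 were called higher and 0 lower, with a median difference of 0.58 (all probe sets, 3.21% higher). In Mild PE against Vehicle 6 were called higher and 0 lower, with a median of 0.50 (0.506% higher and 0.528% lower). Called counts were 27 and 4 as deposited and 22 and 1 with median centring, so the direction held under these scalings.

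Nhp2, a component of small nucleolar particles that guide RNA modification, gave 11.08, 11.14 and 11.10 in 18-h Vehicle rats and 12.23, 12.43, 12.53 and 12.04 in 18-h Severe PE rats. Its difference was 1.20 (SE 0.12, adjusted p = 0.00937, limma). Rrp12, needed for export of the subunits, differed by 1.43 (SE 0.15, adjusted p = 0.00946), Noc4l by 0.63 and Gnl3, the nucleolar protein nucleostemin, by 0.87. In Mild PE rats Emg1 (1.56), Nhp2 (0.92), Gnl3 (0.64) and Wdr12 (0.77) passed the test. The count in Severe PE was 15, 13 and 8 without Vehicle rat 1, 2 and 3, and 11 and 12 without Severe PE rat 2 and 3. That in Mild PE was 0 without any of the Vehicle rats or Mild PE rat 1 or 2, 1 without Mild PE rat 4 and 16 without Mild PE rat 3. With the replicate number as a block 0 were called in either comparison.

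Mitochondrial ribosomal proteins, which form the separate ribosome of the mitochondrion, numbered 73. At 18 h in Severe PE 7 were called higher and 1 lower (3.21% and 3.91% of all probe sets), with a median of 0.21, and in Mild PE none was called, with a median of 0.17. Those called higher in Severe PE numbered 4 in the values as deposited and 3 with median centring. Those with the smallest adjusted p were Mrpl54 (0.69), Mrpl38 (0.92), Mrps34 (0.61) and Mrps27 (0.71), and the one called lower, chosen after its value was seen, was Mrpl14 (−0.94). Elongation factors and other mRNAs of the TOP class, of which 12 of 18 were measured, had no call in either comparison and medians of 0.06 and 0.10. Of these Eef1b2 rose by 0.46 (SE 0.07, adjusted p = 0.023) and Eif3f fell by 0.37 (adjusted p = 0.0219) in Severe PE, both short of 1.5-fold. Ribosomal proteins whose symbols do not follow the rule were represented by Rpsa and Rack1, 2 of 5, which differed by 0.19 and 0.00 in Severe PE.

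Of the list of mTOR and S6 kinase genes, which also holds Myc and translation factors, 26 of 29 were measured. Their median difference was −0.02 in Severe PE against Vehicle at 18 h. Of these 3 were called higher and 2 lower (3.21% and 3.91% of all probe sets), and 2 were called higher both as deposited and with median centring. Called higher were Myc (1.30), a transcription factor that drives ribosome synthesis, Eif4e (0.91), the cap-binding factor, and Eif4ebp1 (0.61), its inhibitor. Called lower were Eef2k (−0.74), the kinase of an elongation factor, and Rps6ka2 (−0.64), a ribosomal S6 kinase. Eif4e gave 10.25, 10.44 and 10.63 in 18-h Vehicle rats and 11.25, 11.57, 11.38 and 11.20 in 18-h Severe PE rats, without overlap. None of the 26 was called in Mild PE against Vehicle.

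**Figure D5:**
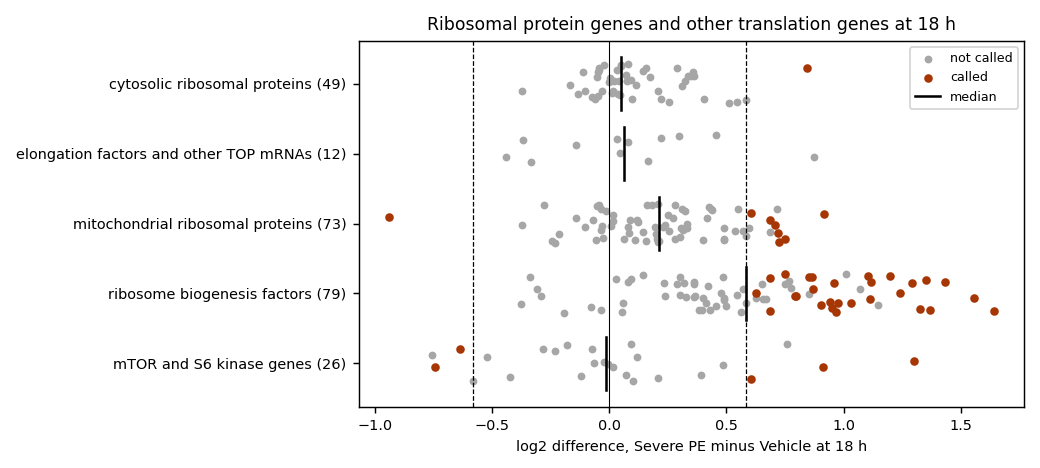
Log2 difference of Severe PE minus Vehicle at 18 h for the 49 ribosomal protein genes and 4 other lists of translation genes (number of genes in brackets), with the median of each list as a line and dashed lines at 1.5-fold. Of the ribosomal proteins 1 is called (Rpl4), and of the ribosome biogenesis factors 28 are called, all higher.

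Whole lung was measured, so fewer cells of a type and less RNA per cell cannot be told apart. Markers of some cell types moved at 18 h. Marker signals were summed and then taken to log2, so the brightest markers of a list weigh most. A sum was not read as the number of cells of a type. The log2 of the summed signal of 7 of 8 neutrophil markers ran from 14.40 to 14.76 in 18-h Vehicle rats, 15.07 to 15.63 in Mild PE and 15.50 to 16.06 in Severe PE. That of 7 of 8 endothelial markers ran from 15.43 to 15.49, 14.96 to 15.26 and 14.71 to 14.95. That of 5 alveolar type I markers ran from 15.9997 to 16.15 in Vehicle rats, from 15.61 to 15.82 in Mild PE rats and from 15.47 to 15.72 in Severe PE rats. That of 10 of 12 lymphocyte markers ran from 14.91 to 15.18 in Vehicle, 14.76 to 15.02 in Mild PE and 14.63 to 14.85 in Severe PE rats, and that of 7 of 9 macrophage markers from 13.36 to 13.57, 13.77 to 14.10 and 13.68 to 13.92. In Severe PE against Vehicle at 18 h, 3 of 10 lymphocyte and 3 of 7 endothelial markers were called lower, against 3.91% of all probe sets. Calls higher in these lists, and all calls in the other marker lists, are not counted here. For alveolar type II, airway, erythroid and smooth muscle markers the 18-h ranges of both PE groups overlapped those of Vehicle rats. No measured gene of these lists was at the floor. The part of cell composition in the differences of ribosomal protein and ribosome biogenesis genes was not tested.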

How the data were processed

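Total RNA of lavaged rat lung was hybridised to Affymetrix rat genome expression arrays, 1 per rat (22 arrays). The values are linear probe set intensities that the authors deposited after scaling every array to the same 2% trimmed mean (500.147 to 500.181). The study's methods name GC-RMA, whose log2 values differ from these deposited intensities, so the software of the deposited summary is not given in the sources used here. Of 31099 probe sets, 57 array controls were left out and 31042 analysed. By the platform annotation 20826 had 1 gene symbol, 436 several and 9780 none.

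Intensities were set to at least 16, taken to log2 and quantile normalised with limma 3.58.1 in R 4.3.3. Each pairwise comparison was a limma fit on the 2 groups compared. Terms for time, dose and their interaction, and differences of an effect between the times, were fitted on all 22 arrays. A call needed a Benjamini-Hochberg adjusted p under 0.05 over all probe sets and at least 1.5-fold (for the 2-way model, the range of the 6 group means). A gene with several probe sets was given by the brightest. Genes were named where called, otherwise the 3 with the largest difference each way, with the 5 largest and smallest ranges, the 5 brightest and dimmest, the paralogs and the stalk protein with their core proteins, and up to 4 of each other list by adjusted p. The scripts were tested on simulated data. The members, the gene lists and the tests were chosen with earlier results of these data known.

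Alternatives were median centring, the deposited scaling alone, a floor of 64, a variance trend, a filter on dim probe sets, the methods' t-test, 1 fit on all arrays, the mean over probe sets of a gene, the replicate number as a block, and leaving out single rats or the 4 arrays with weak 5′ signal (Gapdh 3′ minus 5′ log2 signal above 0.33, a limit just over the next array at 0.322). Residuals of same-numbered rats correlated between −0.273 and 0.123 (median −0.0097, 51 pairs), so the numbers were not taken as pairs. No arrays held identical values, and their correlations ran from 0.941 to 0.985. Groups of 3 or 4 rats limit the precision. Promoter windows came from a RefSeq table, with 7 of the 49 genes unmatched.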

Additional observations from a re-analysis of the deposited data

Results flagged for a closer look

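Among 52 checks of a gene in a group of 4 rats, 1 rat stood apart. Rps4y2 had a log2 signal of 9.79 in 18-h Severe PE rat 4, whereas the others of that group lay between 9.21 and 9.24, and the gap was 0.936 of the range. Chance gives about 1 such rat in 20 checks.

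The effect of Severe PE differed between 18 h and 2 h for 2 of the 49 genes, by limma contrasts on all 22 arrays. Of all probe sets 6.42% passed the adjusted p. The difference of the effects was 1.06 for Rpl4 (adjusted p = 0.019) and 0.46 for Rpl14 (adjusted p = 0.00659). Leaving out 1 rat, the adjusted p of Rpl4 rose to as much as 0.0566. With median centring Rpl14 did not pass (0.32, adjusted p = 0.206).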

How the results depend on the processing

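With median centring the median log2 differences of the 49 genes at 2 h were 0.12 (Mild PE against Vehicle), 0.18 (Severe PE against Vehicle) and 0.047 (Severe PE against Mild PE), at 18 h −0.056, 0.10 and 0.16 in the same order, and between the times 0.45, 0.26 and 0.33 (Vehicle, Mild PE, Severe PE). Called were 2 genes in Severe PE at 18 h against 2 h, 16 for time (19.9% of all probe sets) and 1 for the interaction. With the deposited scaling alone these medians were 0.094, 0.14 and 0.035, then 0, 0.13 and 0.13, then 0.28, 0.18 and 0.23. Under it 3 genes were called for time (18.3% of all probe sets) and 2 each for the dose and interaction terms. Other counts of called ribosomal protein genes in this section are given without that share, so they were not read as results about these genes. Rps23 turned from lower to higher, to 0.20 in Mild PE between the times and 0.32 for time with median centring, and to 0.11 and 0.20 with the deposited scaling. Rpl14 turned to −0.084 for time with the mean over its probe sets.

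In Severe PE against Vehicle at 18 h, 0 genes were called with a floor of 64, by the methods' t-test, without the arrays of weak 5′ signal, or with the replicate number as a block. The block changed no other count of called ribosomal protein genes by over 1.5 times. With the floor of 64 the median of Severe PE between the times was 0.027. A variance trend gave 1 call for the interaction. The filter on dim probe sets, which left 41 of the genes, gave 1 call in Mild PE against Vehicle at 18 h (median 0.056), 1 for the interaction and a median of −0.035 in Vehicle between the times. Without the arrays of weak 5′ signal the medians of Severe PE against Vehicle were −0.050 at 2 h and 0.085 at 18 h, and 1 gene was called in Severe PE between the times, with 2 calls for dose and 1 for interaction. The cause of these shifts was not tested.

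Ribosome biogenesis factors called in Mild PE against Vehicle at 18 h numbered 1 with median centring, 2 with the floor of 64, 0 with the block and 0 without the arrays of weak 5′ signal, and in Severe PE 0 with the block and 15 without those arrays. These alternatives for that list were chosen after seeing the data. Mitochondrial ribosomal proteins called higher in Severe PE against Vehicle at 18 h numbered 7, against 4 with the deposited scaling and 3 with median centring.

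Leaving out 1 rat, calls ranged from 0 to 1 in Severe PE against Vehicle at 18 h, in Severe PE between the times and for each term of the 2-way model, and from 0 to 2 for the difference of the effect of Severe PE. The counts of ribosome biogenesis factors ranged from 0 to 16 in Mild PE and 8 to 24 in Severe PE. Medians ranged from −0.050 to −0.012 (Severe PE against Mild PE at 2 h), 0.019 to 0.057 and 0.023 to 0.085 (Mild PE and Severe PE against Vehicle at 18 h), −0.036 to −0.0072 (Vehicle between the times) and 0.033 to 0.068 (Severe PE between the times). Of the other counts of calls, 120 without and 163 with a rat left out stayed within 1.5 times.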
